A study of Mus musculus with 18 samples.

Results

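Livers of C57BL/6 male mice were compared for how far the response to methotrexate depended on diet. All 18 of the 18 arrays of the series entered the comparison, since it needs every group: 4 livers of the LFD group, 5 of LFD MTX50, 4 of HFD and 5 of HFD MTX50, with 1 array per mouse. From 6 weeks of age the mice ate a diet with 10% (LFD) or 60% (HFD) of its energy as fat, and after 10 weeks the MTX50 groups received methotrexate at 50 mg/kg intraperitoneally in 5 rounds. Liver was taken 1 week after the last round, and LFD and HFD mice received no treatment. C57BL/6 is the strain of every group. The quantity followed here is the interaction, the change under methotrexate in HFD livers (HFD MTX50 minus HFD) minus the change in LFD livers (LFD MTX50 minus LFD), on the log2 scale. A positive interaction marks a gene that rose more, or fell less, on the high-fat diet. A negative one marks a gene that rose more, or fell less, on the low-fat diet.

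Methotrexate is a folate analog that inhibits enzymes of folate metabolism and, as polyglutamates, thymidylate synthase and enzymes of purine synthesis. It is taken up and stored by hepatocytes, and long treatment is known for fatty and fibrotic change of the liver. The mouse liver also carries a strong sex bias, set by the pulsatile growth hormone secretion of males acting through the transcription factor STAT5b, and it adapts to a high-fat diet by storing triglyceride in lipid droplets. Gene groups from each of these areas, and markers of the other cells that whole liver holds, are described in turn.

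The values were spot intensities of one-colour Agilent arrays, expressed as log2 levels relative to the 75th percentile of the array, so that a level of 0 is the 75th percentile. The 75th percentile was 1203 to 2263 intensity units over the 18 arrays, 83.9 to 90.6% of probes lay well above background, and the mean correlation of each array to its group mates was 0.980 to 0.992. A gene was read on its brightest kept probe (19598 genes tested) and called at a limma adjusted p below 0.05, with errors given as SE and without a fold threshold. The p-values rest on the spread between mice within groups, pooled over the 4 groups, and the number of arrays limits the precision. The 14 hepatocyte markers were all above background, with a summed level of 1740 to 2716 times the 75th percentile, and 0 of them were called for the interaction. The 4 LFD arrays filled 1 slide and the LFD MTX50 arrays lay on 2 others, so the low-fat part of every interaction cannot be told apart from slide. HFD mice 3 and 4 shared 1 slide with HFD MTX50 mice 1 and 2, and the interaction with the high-fat change taken from that slide alone is given for the gene lists and for some of the largest responses.

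Across all genes, which diet gave more calls under methotrexate depended on the slide term. Without one, 5503 genes were called in LFD and 2148 in HFD livers, and with the slide as a random effect 340 were called in LFD and 1858 in HFD livers, the LFD groups lying on separate slides. In the fit without a slide term, in LFD livers 3450 genes rose (17.6% of those tested) and 2053 fell (10.5%), whereas in HFD livers 946 rose (4.83%) and 1202 fell (6.13%). The interaction itself was called for 5243 genes (26.8%), of which 1697 were positive (8.66%) and 3546 negative (18.1%). An unadjusted limma p below 0.05 was reached by 7959 genes. Of the 5243 genes, 2818 responded on the low-fat diet only, with 1902 rising and 916 falling there. Another 818 responded on the high-fat diet only, with 296 rising and 522 falling. In 313 genes methotrexate acted in opposite directions, with 246 rising in LFD and falling in HFD livers and 67 the reverse. In 7 genes both diets gave a call in the same direction but of unequal size, and 1287 genes differed between the diets without a call on either diet alone. An interaction of at least 2-fold was reached by 1556 genes, of which 1011 responded on the low-fat diet only, 129 on the high-fat diet only and 160 in opposite directions. Such classes rest on the threshold within each diet, whereas the interaction tests the difference itself.

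**Figure D1:**
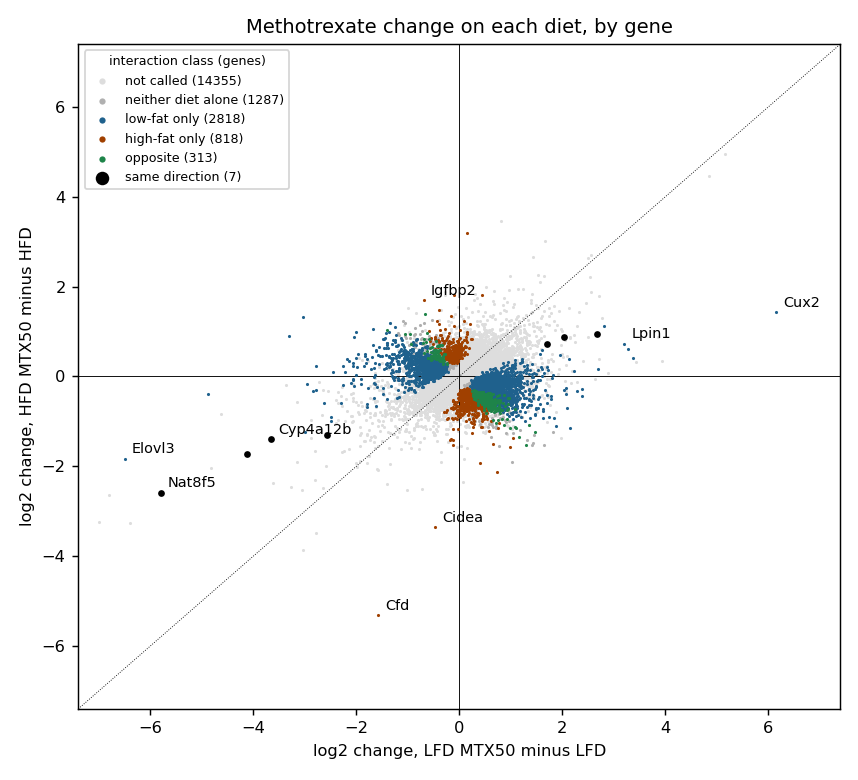
Change under methotrexate in LFD livers (x axis, log2) against the change in HFD livers (y axis, log2) for each of 19598 genes, coloured by interaction class, with the line of equal change dotted. The 2818 low-fat-only genes spread along the x axis, the 818 high-fat-only genes along the y axis, and the 313 opposite genes lie in the upper left and lower right quadrants.

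These counts moved with the slides and with single mice. When the slide was fitted as a random effect (estimated correlation within slides 0.262), 1249 genes (6.37%) were called, of which 127 responded on the low-fat diet only, 450 on the high-fat diet only and 12 in opposite directions. With the high-fat change taken from the shared slide, 3316 genes were called. Without HFD mouse 3 the count was 3007, and without HFD mouse 4 it was 3120. The high-fat-only class held 110 genes without either of these mice, 487 without HFD mouse 2, 374 without HFD MTX50 mouse 5, 1229 without HFD MTX50 mouse 1 and 1303 without HFD mouse 1. The low-fat-only class held 1522 genes without LFD mouse 2, 1819 without LFD mouse 3 and 1594 without LFD MTX50 mouse 3. The opposite class held 15 genes with HFD mouse 4 omitted and 755 with HFD mouse 1 omitted. Called with the same sign by the 75th percentile, by quantile normalization and with the slide block were 1107 genes (299 positive, 808 negative). By their class in the fit without a slide term, 628 of them were low-fat-only, 179 high-fat-only and 288 opposite. Only the interaction was required to hold in the other fits, not the class. A gene said below to pass under an alternative passed for its interaction.

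The excess of negative calls followed signal and scaling. Genes were split into 4 equal groups by mean signal. In the dimmest group 63 calls were positive and 1328 negative, with a median interaction of -0.55, and in the brightest 834 were positive and 265 negative, with a median of 0.19. Over all genes the median was -0.11. After quantile normalization it was 0.0044, 3283 genes were called (16.8%) and 47.1% of the calls were positive, against 32.4% with the 75th percentile and 51.0% after median scaling. The 1049 sensory receptor genes, which liver is not known to use, had 33 positive and 326 negative calls and a median of -0.53 (35 and 133 calls and -0.21 after quantile normalization). All 10 spike-in transcripts, which are added to the sample and carry no biology of the mouse, had a negative interaction (-0.93 to -0.22, median -0.60), with a median change of 0.46 in LFD and -0.14 in HFD livers. The part of signal and scaling in any single result was not tested. The lists described at length are given with their counts after quantile normalization, with the slide as a random effect (the slide block) and with the high-fat change from the shared slide. Calls in a list are to be read against the shares over all genes, 26.8% called, 8.66% positive and 18.1% negative.

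**Figure D2:**
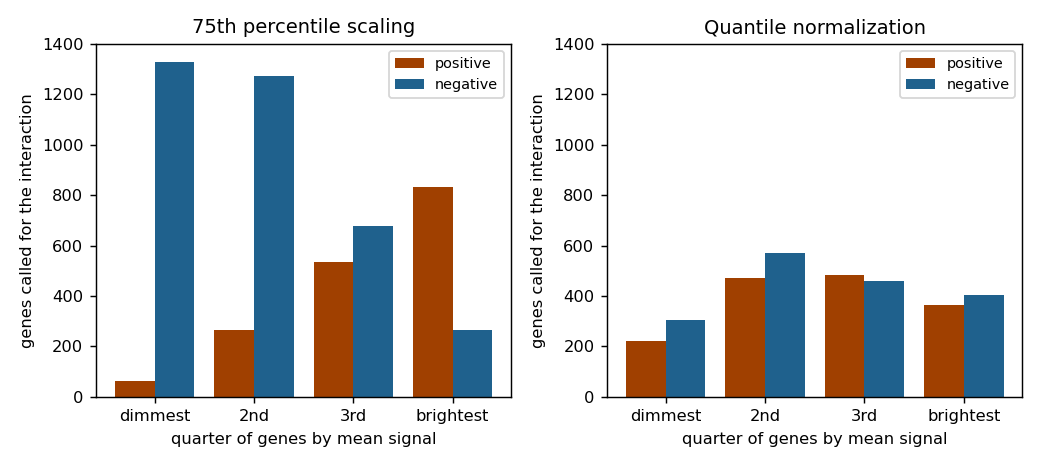
Number of genes called for the interaction (y axis) by group of mean signal, from the dimmest to the brightest of 4 (x axis), with positive and negative calls side by side, for 75th percentile scaling and for quantile normalization. Negative calls fall from 1328 in the dimmest to 265 in the brightest group under the 75th percentile, and lie between 306 and 569 after quantile normalization.

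Sex-biased liver genes gave some of the largest interactions. Of 20 male-biased genes kept, 7 were called positive and 0 negative, against 8.66% positive among all genes, and all 20 had an interaction above 0 (median 1.31, against -0.11 for all genes). In LFD livers 14 of the 20 fell and 0 rose, and in HFD livers 2 fell and 0 rose. Of 23 female-biased genes, 0 were called positive and 7 negative (30.4%, against 18.1% negative among all genes). Their median was -0.90, against -0.55 for the dimmest signal group. In LFD livers 9 of them rose and 0 fell, and in HFD livers 1 rose and 1 fell. After quantile normalization the counts were 6 positive male-biased genes and 4 negative female-biased genes, with the slide block 4 and 2, and with the shared slide 4 and 2. Leaving out 1 mouse gave 6 to 11 called male-biased genes (11 without HFD MTX50 mouse 1) and 2 to 8 called female-biased genes (2 without HFD mouse 3, 3 without HFD mouse 4, LFD mouse 4 or HFD MTX50 mouse 5).

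Elovl3, a fatty acid elongase with strong male bias, had the largest positive interaction among the called genes that were above background on every array of a group. Elovl3 lay at a log2 level of 4.12, 2.46, 3.61 and 4.37 in LFD livers, at -3.51, -1.69, -2.60, -2.46 and -4.03 in LFD MTX50, at 2.55, 2.15, 2.03 and 2.54 in HFD and at -1.88, 0.23, 1.33, 1.23 and 1.53 in HFD MTX50. Every LFD MTX50 liver lay below every HFD MTX50 liver except mouse 1 of the latter, and the MTX50 and untreated livers did not overlap on either diet. The LFD change was a 90.4-fold fall. The Elovl3 change was -6.50 ± 0.61 (adjusted p = 4.23e-05) on the low-fat and -1.83 ± 0.61 (adjusted p = 0.0603) on the high-fat diet, and the interaction was 4.67 ± 0.86 (adjusted p = 0.00519). With the high-fat change from the shared slide the interaction was 3.39 (adjusted p = 0.0225). Cyp4a12b and Cyp4a12a are male-specific cytochromes P450 of fatty acid hydroxylation whose sequences are close to each other, so that probes may not separate them. Cyp4a12b lay at 3.26, 3.13, 3.36 and 3.08 in LFD livers, at -0.33, -0.56, -0.17, -0.07 and -1.10 in LFD MTX50, at 1.54, 2.00, 1.94 and 2.42 in HFD and at -0.17, 1.35, 0.59, 1.38 and -0.27 in HFD MTX50. Untreated and treated livers did not overlap on either diet, and HFD MTX50 mice 1 and 5 lay within the range of the treated LFD livers while mice 2 to 4 lay above it. The Cyp4a12b change was -3.66 ± 0.32 (adjusted p = 3.29e-05) on the low-fat and -1.4 ± 0.32 (adjusted p = 0.0166) on the high-fat diet, and the interaction was 2.26 ± 0.45 (adjusted p = 0.00586). For Cyp4a12a the interaction was 2.40 ± 0.58 (adjusted p = 0.0103), with a change of -4.13 on the low-fat and -1.74 on the high-fat diet.

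Gstp1 encodes a glutathione transferase of higher level in male liver. Gstp1 lay at 5.90, 5.11, 4.90 and 5.70 in LFD livers, at 3.66, 3.04, 3.73, 4.05 and 2.25 in LFD MTX50, at 4.62, 4.16, 3.71 and 4.06 in HFD and at 4.31, 4.46, 4.38, 3.79 and 4.91 in HFD MTX50. The fall was seen in LFD livers, where the groups did not overlap, while the HFD groups overlapped. The Gstp1 change was -2.06 ± 0.32 (adjusted p = 0.00121) on the low-fat and 0.23 ± 0.32 (adjusted p = 0.650) on the high-fat diet, and the interaction was 2.29 ± 0.46 (adjusted p = 0.00588). A dimmer probe of Gstp1 gave 1.81 ± 0.46 (adjusted p = 0.0123). Its neighbour Gstp2, of near-identical sequence, had an interaction of 1.85 (adjusted p = 0.00731). Susd4, a complement regulator, had a change of -1.64 on the low-fat and 0.04 on the high-fat diet and an interaction of 1.68 ± 0.39 (adjusted p = 0.00892). C8a, a chain of the complement membrane attack complex, had a change of -0.67 on the low-fat and 0.64 on the high-fat diet and an interaction of 1.31 ± 0.33 (adjusted p = 0.0122), fitted without LFD mouse 1, which lacks a value. Mup21, a major urinary protein of a family with near-identical members, lay between 2.13 and 5.32 in LFD MTX50 livers and between 3.56 and 7.96 in HFD MTX50 livers, and its interaction was 2.79 ± 0.99 (adjusted p = 0.0450). Hsd3b5, a male-specific steroid reductase, did not pass the test (3.80 ± 1.92 (adjusted p = 0.142)): HFD MTX50 mice 1 and 2 lay at -3.85 and -1.52 and mice 3 to 5 between 2.89 and 3.45. The untreated HFD livers were spread as well, between -1.23 and 3.88.

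Other genes with a large interaction were outside both lists. Nat8f5, of the N-acetyltransferase 8 family, lay between -5.76 and -3.66 in LFD MTX50 and between -3.60 and -0.93 in HFD MTX50 livers, and both lay below the untreated livers (0.86 to 1.66 in LFD and 0.10 to 0.92 in HFD). The Nat8f5 change was -5.80 ± 0.47 (adjusted p = 2.59e-05) on the low-fat and -2.58 ± 0.47 (adjusted p = 0.00785) on the high-fat diet, and the interaction was 3.22 ± 0.66 (adjusted p = 0.00624). Hsd3b4, a relative of Hsd3b5, was spread in both high-fat groups and lay at 1.41, -0.75, -3.80 and -0.93 in HFD livers. Hsd3b4 was at -4.60 and -3.80 in HFD MTX50 mice 1 and 2 and between 0.12 and 0.96 in mice 3 to 5. Its interaction was 4.49 ± 1.57 (adjusted p = 0.0430), with a change of -4.89 on the low-fat and -0.39 on the high-fat diet, while its dimmer probe gave -0.37 ± 0.22 (adjusted p = 0.214). Slc22a26, an organic anion transporter gene, rose on the low-fat diet only and lay between -3.08 and 0.32 in LFD MTX50 livers and between -4.36 and -3.02 in the other groups, and its interaction was -2.54 ± 0.65 (adjusted p = 0.0130). Under the slide block, Elovl3, Cyp4a12b, Gstp1, Susd4, Nat8f5 and Slc22a26 passed the threshold (adjusted p = 0.0341 to 0.0490) and Cyp4a12a, C8a, Mup21 and Hsd3b4 did not (0.0544 to 0.128). After quantile normalization, Elovl3, Cyp4a12b, Cyp4a12a, Gstp1, Susd4, C8a, Nat8f5 and Slc22a26 passed the threshold (adjusted p = 0.00923 to 0.0325) and Mup21 and Hsd3b4 did not (0.0603 to 0.0805). Of the 18 fits that each left out 1 mouse, the call was lost for Mup21 in 15 (up to 0.0933, without HFD mouse 3) and Hsd3b4 in 13 (up to 0.104, without HFD mouse 3).

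Among female-biased genes, Cux2, a transcription factor of female liver, had the most negative interaction. Cux2 lay at -6.66, -8.20, -6.57 and -7.86 in LFD livers, at -0.55, -1.41, -1.52, -1.89 and -0.48 in LFD MTX50, at -6.58, -6.78, -5.92 and -6.94 in HFD and at -4.45, -3.57, -4.67, -6.37 and -6.56 in HFD MTX50. It was well above background on all 5 LFD MTX50 arrays, on 1 of 4 LFD, 2 of 4 HFD and 4 of 5 HFD MTX50 arrays, and the LFD MTX50 livers lay apart from all others. The Cux2 change was 6.15 ± 0.54 (adjusted p = 3.29e-05) on the low-fat and 1.43 ± 0.54 (adjusted p = 0.0893) on the high-fat diet, and the interaction was -4.72 ± 0.77 (adjusted p = 0.00477). Fmo2 encodes a flavin monooxygenase. Fmo2 lay at -3.23, -2.84, -3.06 and -3.03 in LFD livers, at 1.24, -0.37, 0.17, -1.65 and 1.83 in LFD MTX50, at -2.89, -2.74, -2.56 and -2.49 in HFD and at -2.26, -0.25, -2.47, -2.35 and -3.01 in HFD MTX50. HFD MTX50 mouse 2 stood apart from the other 4 HFD MTX50 livers, which lay within the range of the untreated livers or near it. The Fmo2 change was 3.28 ± 0.57 (adjusted p = 0.00199) on the low-fat and 0.60 ± 0.57 (adjusted p = 0.489) on the high-fat diet, and the interaction was -2.68 ± 0.81 (adjusted p = 0.0242).

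The remaining called female-biased genes had smaller interactions than Cux2 and Fmo2. Cyp2b9, a female-specific cytochrome P450, had a change of 2.07 on the low-fat and -0.39 on the high-fat diet and an interaction of -2.46 ± 0.89 (adjusted p = 0.0491). A1bg, a secreted glycoprotein of female liver, had one of 1.20 on the low-fat and -0.27 on the high-fat diet and an interaction of -1.47 ± 0.46 (adjusted p = 0.0290). Sult1e1, the estrogen sulfotransferase, had one of 1.06 on the low-fat and -0.22 on the high-fat diet and an interaction of -1.29 ± 0.43 (adjusted p = 0.0368). Trim24, a corepressor of nuclear receptors, rose on both diets (1.70 on the low-fat and 0.73 on the high-fat diet), with an interaction of -0.96 ± 0.32 (adjusted p = 0.0334), and its dimmer probe gave -0.62 ± 0.29 (adjusted p = 0.117). With a random slide block, Cux2 passed the threshold (adjusted p = 0.0331) and Fmo2, Cyp2b9, A1bg, Sult1e1 and Trim24 did not (0.0700 to 0.140). With quantile normalization, Cux2 and Fmo2 passed the threshold (adjusted p = 0.00792 to 0.0451) and Cyp2b9, A1bg, Sult1e1 and Trim24 did not (0.0507 to 0.188). The call was lost on leaving out 1 of the 18 mice for Fmo2 in 2 (up to 0.0505, without HFD mouse 3), Cyp2b9 in 13 (up to 0.118, without HFD mouse 3), A1bg in 5 (up to 0.0713, without HFD mouse 3), Sult1e1 in 11 (up to 0.0792, without HFD mouse 3) and Trim24 in 11 (up to 0.0667, without HFD mouse 2).

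The promoters of these female-biased genes are shown because a short motif recurs in 5 of them. They were taken from RefSeq (assembly GRCm38.p6, a table matched by symbol), which holds a promoter for 15537 of the tested genes, for 6 of the 7 called female-biased and for 4 of the 7 called male-biased genes. Each line gives the 250 bases before a start site, 5′ to 3′ on the strand of the gene, with capitals marking AGGTCA or its reverse complement TGACCT, the core motif that many nuclear receptors bind. In A1bg they also mark CACGTG (an E-box) and TTCNNNGAA (the STAT core). The windows lie at chr7:26173159-26173408 (plus strand) for Cyp2b9, chr1:162898494-162898743 (minus strand) for Fmo2, chr5:87591612-87591861 (minus strand) for Sult1e1, chr6:37900237-37900486 (plus strand) for Trim24 and chr15:60921271-60921520 (minus strand) for A1bg. For Fmo2 and Trim24 the second of the start sites in the table is shown, since the window of the first holds none of these motifs.
Cyp2b9: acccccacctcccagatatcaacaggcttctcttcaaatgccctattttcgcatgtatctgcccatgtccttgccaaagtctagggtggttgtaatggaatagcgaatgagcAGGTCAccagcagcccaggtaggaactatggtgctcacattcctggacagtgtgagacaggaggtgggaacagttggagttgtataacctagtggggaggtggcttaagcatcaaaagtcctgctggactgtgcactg
Fmo2: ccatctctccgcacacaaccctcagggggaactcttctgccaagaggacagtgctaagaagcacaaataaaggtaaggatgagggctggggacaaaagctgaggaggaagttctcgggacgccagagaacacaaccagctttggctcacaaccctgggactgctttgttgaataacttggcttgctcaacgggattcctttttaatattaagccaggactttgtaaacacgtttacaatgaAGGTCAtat
Sult1e1: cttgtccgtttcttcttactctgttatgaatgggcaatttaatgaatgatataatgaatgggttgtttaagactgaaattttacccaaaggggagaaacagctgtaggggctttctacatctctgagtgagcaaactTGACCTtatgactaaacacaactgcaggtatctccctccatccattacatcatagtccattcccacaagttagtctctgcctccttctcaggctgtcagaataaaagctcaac
Trim24: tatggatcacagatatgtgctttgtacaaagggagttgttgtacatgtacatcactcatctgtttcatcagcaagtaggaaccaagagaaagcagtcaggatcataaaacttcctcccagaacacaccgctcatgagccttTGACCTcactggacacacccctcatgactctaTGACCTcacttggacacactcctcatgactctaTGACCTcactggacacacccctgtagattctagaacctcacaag
A1bg: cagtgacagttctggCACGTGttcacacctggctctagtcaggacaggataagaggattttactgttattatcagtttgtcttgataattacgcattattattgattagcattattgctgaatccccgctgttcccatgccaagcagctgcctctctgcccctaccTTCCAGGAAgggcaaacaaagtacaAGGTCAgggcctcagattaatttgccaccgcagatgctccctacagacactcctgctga

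Within 250 bases before to 50 after a start site, on both strands, the AGGTCA motif was present in 5 of the 6 called female-biased genes (83.3%), with Cux2 the exception, and in 10 of the 18 kept female-biased genes that have a promoter (55.6%). It was present in 3 of 14 kept male-biased genes (21.4%), in 0 of the 4 called ones and in 16.6% of all tested genes with a promoter. A gene counts here when any of its start sites in the table has the motif, and with the first start site alone the counts were 3 of the 6 called and 8 of the 18 kept female-biased genes (44.4%), against 14.2% of all genes. The share was 18.3% in low-fat-only, 15.9% in high-fat-only and 17.7% in opposite genes. The E-box was present in 9.68% of all promoters and 11.1% of the kept female-biased genes, and the STAT core in 8.99% and 16.7%. These are matches of letters and no measure of binding.

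Growth hormone signalling, the upstream pathway of sex-biased expression, had 2 positive and 2 negative calls among 14 genes (28.6%, a share close to the 26.8% of all genes, with 2 positive and 1 negative call after quantile normalization, 1 and 0 with the slide block and 1 and 2 with the shared slide, median -0.25). Socs2, a STAT5 target that restrains the receptor, rose on both diets and more on the low-fat diet. Socs2 lay at -1.10, -0.83, -1.38 and -1.67 in LFD livers, at 1.43, 1.18, 1.53, 1.47 and 1.56 in LFD MTX50, at -0.54, -1.32, -1.5 and -0.02 in HFD and at 0.01, 0.55, 0.02, 0.59 and -0.69 in HFD MTX50. The groups were apart on the low-fat diet and overlapped on the high-fat diet. The Socs2 change was 2.68 ± 0.29 (adjusted p = 0.000140) on the low-fat and 0.94 ± 0.29 (adjusted p = 0.0465) on the high-fat diet, and the interaction was -1.74 ± 0.41 (adjusted p = 0.00923). The other probes of Socs2 gave -2.03 ± 0.43 (adjusted p = 0.00686) and -1.92 ± 0.37 (adjusted p = 0.00555). Stat5a had a change of -0.99 on the low-fat and 0.11 on the high-fat diet and an interaction of 1.09 ± 0.31 (adjusted p = 0.0181). Igfbp2, a binding protein for insulin-like growth factors, rose on the high-fat diet only. Igfbp2 lay at 4.47, 4.52, 4.33 and 4.70 in LFD livers, at 3.58, 3.78, 4.28, 3.98 and 3.44 in LFD MTX50, at 3.59, 2.43, 1.31 and 2.16 in HFD and at 4.56, 4.56, 4.79, 3.84 and 2.56 in HFD MTX50. HFD mice 2 to 4 lay below every other liver, and HFD MTX50 mouse 5 was within the HFD range. The Igfbp2 change was -0.69 ± 0.42 (adjusted p = 0.218) on the low-fat and 1.69 ± 0.42 (adjusted p = 0.0227) on the high-fat diet, and the interaction was 2.38 ± 0.60 (adjusted p = 0.0116). Igfals, the acid labile subunit that carries these factors in blood, had an interaction of -0.76 ± 0.25 (adjusted p = 0.0340). Once slide entered as a block, Igfbp2 passed the threshold (adjusted p = 0.0434) and Socs2, Stat5a and Igfals did not (0.0604 to 0.108). On quantile-normalized values, Socs2, Stat5a and Igfbp2 passed the threshold (adjusted p = 0.0171 to 0.0258) and Igfals did not (0.0587). Leave-one-out fits lost the call for Igfals in 6 (up to 0.0788, without HFD mouse 4).

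**Figure D3:**
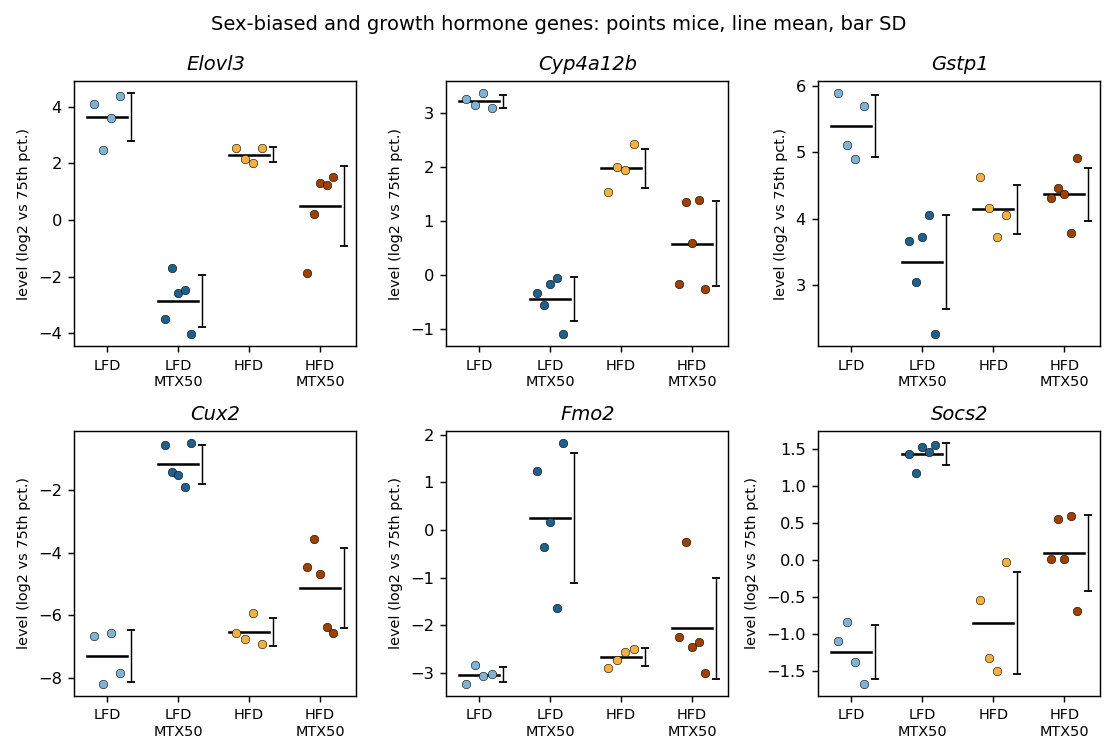
Log2 level relative to the 75th percentile (y axis) of Elovl3, Cyp4a12b, Gstp1, Cux2, Fmo2 and Socs2 in each mouse of the 4 groups (x axis), with the group mean as a line and 1 SD as a bar. The LFD MTX50 livers have the lowest mean for Elovl3, Cyp4a12b and Gstp1 and the highest for Cux2, Fmo2 and Socs2.

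Genes of fat storage had more negative than positive interactions called, as had all genes (18.1% negative and 8.66% positive). Of 10 genes of hepatic steatosis under the nuclear receptor PPARγ, 0 were positive and 4 negative (median -0.73), with 5 falling and 1 rising in HFD livers and 1 falling and 1 rising in LFD livers. After quantile normalization and with the slide block 1 call was left in each, the shared slide gave 3, and leaving out LFD mouse 1, 2 or 4, LFD MTX50 mouse 3, HFD mouse 3 or 4 or HFD MTX50 mouse 5 also left 1 (HFD mouse 2 left 2). Of 24 genes of triglyceride assembly and storage, 2 were called positive and 6 negative (33.3%, against 26.8% of all genes). Called or not, 14 of the 24 had an interaction above 0 and 10 below (median 0.11, and -0.04 after quantile normalization). In that list 10 genes fell and 3 rose in LFD livers, and 9 fell and 1 rose in HFD livers. There were 1 positive and 3 negative calls after quantile normalization, 1 and 3 with the slide block and 2 and 4 with the shared slide. Leaving out 1 mouse gave 5 to 9 calls (5 without LFD mouse 2 or HFD mouse 3 or 4).

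Cfd encodes adipsin, a complement factor made by fat cells and by fatty liver. Cfd lay at -4.90, -3.66, -2.28 and -5.11 in LFD livers, at -5.57, -6.19, -5.24, -5.99 and -4.82 in LFD MTX50, at 2.03, 2.55, 1.55 and 1.90 in HFD and at -5.58, -3.43, -2.56, 0.19 and -5.16 in HFD MTX50. All 4 HFD livers lay above all others, and the HFD MTX50 livers spread over the range of the low-fat groups and above it. In HFD livers Cfd fell 39.8-fold. The Cfd change was -1.57 ± 0.87 (adjusted p = 0.175) on the low-fat and -5.32 ± 0.87 (adjusted p = 0.00665) on the high-fat diet, and the interaction was -3.74 ± 1.23 (adjusted p = 0.0341). Cidea encodes a lipid droplet protein. Cidea lay at -3.38, -3.02, -1.95 and -3.47 in LFD livers, at -3.40, -3.56, -3.48, -3.75 and -2.96 in LFD MTX50, at -1.19, 1.13, 2.74 and 2.17 in HFD and at -2.90, -2.66, -2.22, -0.10 and -2.86 in HFD MTX50. HFD mouse 1 lay below the other 3 HFD livers and HFD MTX50 mouse 4 above the other 4 treated ones, so that these groups overlapped. In HFD livers Cidea fell 10.3-fold. The Cidea change was -0.48 ± 0.67 (adjusted p = 0.604) on the low-fat and -3.36 ± 0.67 (adjusted p = 0.00981) on the high-fat diet, and the interaction was -2.88 ± 0.94 (adjusted p = 0.0329). On the shared slide the interactions were -4.65 (adjusted p = 0.0478) for Cfd and -4.76 (adjusted p = 0.00868) for Cidea.

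Cidec, the relative of Cidea that enlarges lipid droplets, fell on the high-fat diet only. Cidec lay at -1.5, -1.58, -1.61 and -1.83 in LFD livers, at -1.22, -1.25, -0.88, -1.04 and -1.33 in LFD MTX50, at -1.14, -0.28, 0.24 and -0.05 in HFD and at -1.20, -0.96, -1.57, -1.30 and -1.25 in HFD MTX50. HFD mouse 1 again lay within the treated range, and on the low-fat diet the treated livers were higher without a call. The Cidec change was 0.49 ± 0.21 (adjusted p = 0.0821) on the low-fat and -0.95 ± 0.21 (adjusted p = 0.0139) on the high-fat diet, and the interaction was -1.44 ± 0.29 (adjusted p = 0.00612). A dimmer probe of Cidec gave -3.08 ± 1.60 (adjusted p = 0.156). Pparg, the receptor itself, lay between 0.77 and 1.01 in HFD and between -0.24 and 0.52 in HFD MTX50 livers. The Pparg change was -0.17 ± 0.13 (adjusted p = 0.330) on the low-fat and -0.70 ± 0.13 (adjusted p = 0.00903) on the high-fat diet, and the interaction was -0.53 ± 0.19 (adjusted p = 0.0465). Slc25a10, the mitochondrial dicarboxylate carrier, lay between -1.82 and -1.12 in HFD and between -3.33 and -2.12 in HFD MTX50 livers, without overlap. Its change was -1.43 ± 0.21 (adjusted p = 0.00500) on the high-fat and -0.13 ± 0.21 (adjusted p = 0.666) on the low-fat diet, with an interaction of -1.30 ± 0.30 (adjusted p = 0.00839).

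Lipin genes, whose products make diacylglycerol and coactivate transcription, rose on the low-fat diet only. Lpin1 lay at -1.72, -1.34, -1.01 and -2.01 in LFD livers, at 1.69, 1.61, 1.73, 0.95 and 2.42 in LFD MTX50, at -1.74, -1.14, -1.4 and -1.19 in HFD and at -1.09, 1.21, -1.52, -1.43 and -0.38 in HFD MTX50. The LFD MTX50 livers lay above all others except HFD MTX50 mouse 2, which lay within their range. The Lpin1 change was 3.20 ± 0.44 (adjusted p = 0.000589) on the low-fat and 0.72 ± 0.44 (adjusted p = 0.266) on the high-fat diet, and the interaction was -2.48 ± 0.62 (adjusted p = 0.0115). A dimmer probe of Lpin1 gave -2.09 ± 0.55 (adjusted p = 0.0140). Lpin2 had a change of 1.08 on the low-fat and -0.37 on the high-fat diet and an interaction of -1.45 ± 0.28 (adjusted p = 0.00571). Plin1, the droplet coat protein of fat cells, was dim, with a change of 0.66 on the low-fat and -0.41 on the high-fat diet and an interaction of -1.07 ± 0.19 (adjusted p = 0.00492). Abhd5, the activator of adipose triglyceride lipase, fell on the low-fat diet only (-0.83 on the low-fat and 0.20 on the high-fat diet), with an interaction of 1.03 ± 0.21 (adjusted p = 0.00614), while its dimmer probes gave 0.17 ± 0.28 (adjusted p = 0.663) and -0.31 ± 0.23 (adjusted p = 0.322). Pnpla2, that lipase itself, had an interaction of 0.88 and Dgat1, which makes triglyceride, -0.35. When slide was a block, Cidec, Slc25a10, Lpin2, Plin1 and Abhd5 passed the threshold (adjusted p = 0.0341 to 0.0411) and Cfd, Cidea, Pparg and Lpin1 did not (0.0647 to 0.179). After quantile normalization, Cidec, Slc25a10, Lpin1, Lpin2, Plin1 and Abhd5 passed the threshold (adjusted p = 0.00923 to 0.0292) and Cfd, Cidea and Pparg did not (0.0522 to 0.0623). Omitting 1 mouse at a time lost the call for Cfd in 9 (up to 0.0681, without LFD mouse 4), Cidea in 7 (up to 0.0815, without HFD mouse 3) and Pparg in 13 (up to 0.0940, without HFD mouse 3).

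Adipocyte markers, listed because fat attached to a liver sample would carry them, had 4 negative and 0 positive calls among 8 genes (median -0.79). Over all genes 18.1% were negative and 8.66% positive. The markers did not all go one way: 3 had an interaction above 0 and 5 below. In LFD livers 5 rose and 0 fell, and in HFD livers 2 rose and 1 fell. There were 3 to 4 calls when 1 mouse was left out, 2 after quantile normalization, 2 with the slide block and 3 with the shared slide. Lep, the gene of leptin, rose on the low-fat diet only. Lep lay at -2.56, -3.13, -2.87 and -2.62 in LFD livers, at -1.27, -1.4, -0.88, -1.94 and -1.15 in LFD MTX50, at -1.57, -0.73, 0.08 and 0.24 in HFD and at -1.15, -0.91, -0.79, -2.14 and -1.81 in HFD MTX50. LFD livers were the lowest group. The Lep change was 1.46 ± 0.34 (adjusted p = 0.00789) on the low-fat and -0.87 ± 0.34 (adjusted p = 0.101) on the high-fat diet, and the interaction was -2.33 ± 0.49 (adjusted p = 0.00650). Lipe, hormone-sensitive lipase, was called as well (-0.65, adjusted p = 0.0188), and Cfd and Plin1 are members of this list too. The summed level of the 8 markers was 1.75 to 2.30 in LFD, 2.44 to 4.41 in LFD MTX50, 5.77 to 8.39 in HFD and 2.79 to 3.78 in HFD MTX50, in multiples of the 75th percentile, and each marker was above background in every group. Cfd carries much of the HFD sum. Its mean log2 level in HFD livers was 2.01, against -0.50 for Lep, -3.20 for Lipe and -5.06 for Plin1. The sum without Cfd was not taken. In whole liver, fewer cells of a type and less RNA per cell cannot be told apart, and the part of fat cells in these results was not tested.

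**Figure D4:**
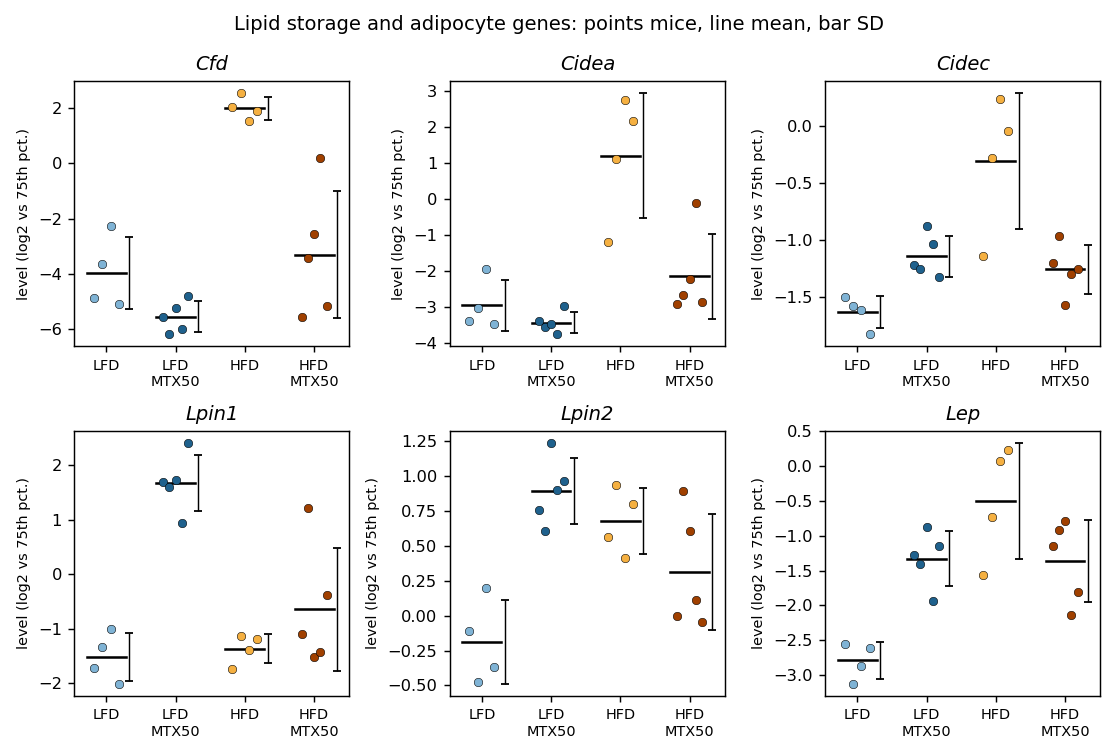
Log2 level relative to the 75th percentile (y axis) of Cfd, Cidea, Cidec, Lpin1, Lpin2 and Lep in each mouse of the 4 groups (x axis), with the group mean as a line and 1 SD as a bar. For Cfd, Cidea and Cidec the untreated HFD livers have the highest mean, for Lpin1 the LFD MTX50 livers, and for Lep the untreated LFD livers have the lowest.

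Genes of fatty acid synthesis fell on both diets, 11 of 19 in LFD and 6 in HFD livers, and 0 rose in either. Of the 19 the interaction was called for 2, Elovl3 and Acly, both positive (with 1 positive and 0 negative calls after quantile normalization, 1 and 0 with the slide block and 1 and 0 with the shared slide, median of the list 0.22). Acly, ATP citrate lyase, supplies acetyl-CoA to the cytosol. Acly lay at 5.30, 5.23, 5.66 and 5.28 in LFD livers, at 4.19, 4.60, 3.06, 4.47 and 4.37 in LFD MTX50, at 4.56, 4.55, 4.46 and 4.09 in HFD and at 3.85, 4.41, 4.61, 4.89 and 4.88 in HFD MTX50. It fell on the low-fat diet, where LFD MTX50 mouse 3 was the lowest. The Acly change was -1.23 ± 0.27 (adjusted p = 0.00559) on the low-fat and 0.11 ± 0.27 (adjusted p = 0.804) on the high-fat diet, and the interaction was 1.34 ± 0.38 (adjusted p = 0.0185). Its call was lost after quantile normalization (adjusted p = 0.0628) and with the slide block (0.104), and a dimmer probe gave -0.38 ± 0.22 (adjusted p = 0.196).

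The other lipid genes that the study singled out in liver did not pass the test of the interaction. Scd1, stearoyl-CoA desaturase, fell on both diets (-3.03 on the low-fat and -3.87 on the high-fat diet), and its interaction was -0.84 ± 1.57 (adjusted p = 0.713). Scd1 lay at 6.67, 6.58, 6.63 and 6.18 in LFD livers, at 2.66, 5.30, 2.43, 5.76 and 1.29 in LFD MTX50, at 4.87, 5.20, 5.91 and 4.50 in HFD and at -1.56, -1.41, 1.71, 2.85 and 4.68 in HFD MTX50. The treated livers spread widely on each diet. Fasn, fatty acid synthase, had an interaction of 0.21 ± 0.95 (adjusted p = 0.884), Acacb, acetyl-CoA carboxylase beta, one of 0.31 ± 0.76 (adjusted p = 0.782), Elovl5 one of 0.64 ± 0.56 (adjusted p = 0.403) and Elovl6 one of 0.04 ± 0.78 (adjusted p = 0.973). Gpam, the first acyltransferase of glycerolipid synthesis, had 0.23 ± 0.46 (adjusted p = 0.733), and Mogat1, monoacylglycerol acyltransferase, had 0.06 ± 0.63 (adjusted p = 0.953) with a fall of -1.93 in LFD and -1.88 in HFD livers. Fitm1, which promotes droplet formation, fell on both diets (-2.15 on the low-fat and -1.61 on the high-fat diet), with an interaction of 0.54 ± 0.48 (adjusted p = 0.410). Enho, the gene of adropin, rose on both by its brightest probe (0.41 on the low-fat and 0.60 on the high-fat diet), with an interaction of 0.19 ± 0.17 (adjusted p = 0.416), and by more on a dimmer probe (1.88, adjusted p = 0.00290, on the low-fat and 2.47, adjusted p = 0.00421, on the high-fat diet), with an interaction of 0.59 ± 0.50 (adjusted p = 0.388). The errors of Scd1, Fasn, Acacb, Elovl6, Mogat1 and Srebf1 allow differences between diets of more than 2-fold in either direction.

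Of the regulators of fat synthesis, Srebf1 had an interaction of -0.31 ± 0.84 (adjusted p = 0.807). Mlxipl, the gene of ChREBP, had one of 0.77 ± 0.23 (adjusted p = 0.0228) on its brightest probe and -0.90 ± 0.24 (adjusted p = 0.0161) on the other, so that its direction depends on the probe. Without HFD mouse 3 the former was at an adjusted p of 0.0565, after quantile normalization at 0.0856 and with the slide block at 0.103. The liver X receptor genes Nr1h3 and Nr1h2 were called with interactions of 0.55 and -0.50. PPARα targets of fatty acid oxidation, 30 genes, had 2 positive and 1 negative call with a median of 0.42, 0 positive and 1 negative call after quantile normalization, 0 and 0 with the slide block and 2 and 0 with the shared slide, and leaving out 1 mouse gave 0 (without HFD mouse 3 or 4) to 10 calls (without HFD MTX50 mouse 5). Cholesterol synthesis and uptake (22 genes) and bile acid synthesis and transport (22 genes) each had 1 call, both negative, that of the bile acid list being the bile acid and drug transporter Slco1a4. The cholesterol list had 0 positive and 1 negative call after quantile normalization, 0 and 0 with the slide block and 0 and 0 with the shared slide and 0 to 3 calls when 1 mouse was left out (3 without LFD MTX50 mouse 4), and the bile acid list had 0 positive and 3 negative calls after quantile normalization, 0 and 1 with the slide block and 0 and 1 with the shared slide and 1 to 4 calls (4 without HFD MTX50 mouse 1). Slco1a4 rose on the low-fat diet only, with a change of 1.18 on the low-fat and -0.20 on the high-fat diet and an interaction of -1.38 ± 0.25 (adjusted p = 0.00482), past the threshold after quantile normalization (0.00855) and with the slide block (0.0340).

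Interferon-stimulated genes, which cells switch on against viruses and in inflammation, had positive interactions. Of 24 genes 9 were called positive and 0 negative, and 23 had an interaction above 0 (median 0.70). In LFD livers 8 fell and 0 rose, and in HFD livers 2 rose and 0 fell. Quantile normalization gave 6 positive calls, the slide block 4, the shared slide 12, and leaving out 1 mouse 5 (without HFD mouse 4) to 13. Ifit1, an antiviral RNA-binding protein, had the largest interaction of the list. Ifit1 lay at -0.92, -1.0, -1.23 and -2.12 in LFD livers, at -2.32, -2.46, -3.02, -2.78 and -4.11 in LFD MTX50, at -1.07, -1.43, -1.84 and -2.53 in HFD and at -0.40, -0.66, -1.83, -1.04 and -1.78 in HFD MTX50. LFD MTX50 livers were below all LFD livers, while the HFD groups overlapped. The Ifit1 change was -1.62 ± 0.40 (adjusted p = 0.00982) on the low-fat and 0.57 ± 0.40 (adjusted p = 0.334) on the high-fat diet, and the interaction was 2.19 ± 0.56 (adjusted p = 0.0129). On the shared slide it was 3.27 (adjusted p = 0.00730). Gbp2, a guanylate-binding GTPase, lay between -1.13 and -0.97 in LFD MTX50 livers and between -0.73 and 0.97 in the other groups. The Gbp2 change was -1.04 ± 0.26 (adjusted p = 0.0101) on the low-fat and 0.49 ± 0.26 (adjusted p = 0.202) on the high-fat diet, and the interaction was 1.53 ± 0.37 (adjusted p = 0.00960). Rsad2 (viperin) had an interaction of 1.67 ± 0.54 (adjusted p = 0.0326), Oasl1 one of 1.5 ± 0.42 (adjusted p = 0.0175) and Gbp3 one of 1.38 ± 0.41 (adjusted p = 0.0231).

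Among all genes in opposite directions were also Parp14, an ADP-ribosyltransferase of the interferon response, and Trim21, an Fc receptor that targets antibody-bound virus. Parp14 lay at 0.94, 0.75, 0.66 and 0.81 in LFD livers, at 0.23, 0.45, -0.05, 0.21 and 0.02 in LFD MTX50, at 0.45, 0.18, -0.10 and -0.30 in HFD and at 1.44, 0.95, 0.55, 0.95 and 1.22 in HFD MTX50. Treated livers lay below untreated ones on the low-fat diet and above them on the high-fat diet, without overlap. The Parp14 change was -0.62 ± 0.17 (adjusted p = 0.0163) on the low-fat and 0.96 ± 0.17 (adjusted p = 0.00780) on the high-fat diet, and the interaction was 1.58 ± 0.24 (adjusted p = 0.00382). Trim21 had a change of -0.70 on the low-fat and 0.74 on the high-fat diet and an interaction of 1.45 ± 0.23 (adjusted p = 0.00451), also without overlap on either diet. Under the slide block, Ifit1, Oasl1, Parp14 and Trim21 passed the threshold (adjusted p = 0.0325 to 0.0489) and Gbp2, Rsad2 and Gbp3 did not (0.0573 to 0.0608). With quantile normalization, Ifit1, Gbp2, Rsad2, Oasl1, Gbp3, Parp14 and Trim21 passed the threshold (adjusted p = 0.00792 to 0.0369). Of the 18 fits that each left out 1 mouse, the call was lost for Rsad2 in 6 (up to 0.0777, without HFD mouse 4) and Gbp3 in 1 (up to 0.0570, without HFD mouse 4).

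Kupffer cell and macrophage markers had 3 positive and 0 negative calls among 18 genes (16.7%, a smaller share than the 26.8% of all genes). Of the 18 markers, 11 had an interaction above 0 and 7 below (median 0.24). The list had 2 calls after quantile normalization, 0 with the slide block and 3 with the shared slide. Leaving out 1 mouse gave 2 to 6 (6 without LFD mouse 2, 5 without LFD MTX50 mouse 2 or HFD MTX50 mouse 2, 2 without HFD mouse 4). The summed level of the 18 markers was 52.0 to 71.8 in LFD, 42.3 to 53.7 in LFD MTX50, 39.5 to 64.5 in HFD and 66.3 to 88.1 in HFD MTX50. Cd68, a lysosomal protein of macrophages, had a change of -0.94 on the low-fat and 0.51 on the high-fat diet and an interaction of 1.46 ± 0.37 (adjusted p = 0.0126). Csf1r, the macrophage growth factor receptor, had one of -0.54 on the low-fat and 0.43 on the high-fat diet and an interaction of 0.97 ± 0.27 (adjusted p = 0.0162), and its dimmer probes gave -0.56 ± 0.30 (adjusted p = 0.169) and 0.82 ± 0.22 (adjusted p = 0.0148). Cd9, a tetraspanin, rose on the high-fat diet only (-0.39 on the low-fat and 1.16 on the high-fat diet, interaction 1.56 ± 0.48 (adjusted p = 0.0255)). Lgals3, galectin 3, which activated macrophages make, went in opposite directions. Lgals3 lay at 3.22, 3.20, 3.22 and 2.79 in LFD livers, at 2.46, 2.09, 1.99, 2.95 and 2.85 in LFD MTX50, at 3.31, 2.78, 2.55 and 2.30 in HFD and at 3.1, 3.31, 3.68, 3.89 and 3.55 in HFD MTX50. The treated and untreated ranges overlapped on both diets. The Lgals3 change was -0.64 ± 0.23 (adjusted p = 0.0460) on the low-fat and 0.77 ± 0.23 (adjusted p = 0.0410) on the high-fat diet, and the interaction was 1.41 ± 0.32 (adjusted p = 0.00852). Neutrophil and myeloid markers had 1 positive and 1 negative call among 16 genes (Elane 0.87, Csf3r -0.60), with 1 positive and 1 negative call after quantile normalization, 0 and 0 with the slide block and 1 and 0 with the shared slide, and 5 calls without HFD MTX50 mouse 5. Lymphocyte markers had 0 positive and 3 negative calls among 19 (15.8%, a smaller share than the 18.1% negative among all genes). These were Cd8a with -1.65 ± 0.44 (adjusted p = 0.0152), Cd79a (-0.85) and Klrb1c (-0.69). The lymphocyte list had 0 positive and 3 negative calls after quantile normalization, 0 and 1 with the slide block and 0 and 3 with the shared slide, and 6 calls without HFD MTX50 mouse 1. The part of the number of these cells in the interactions was not tested.

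Erythroid genes had 5 positive and 0 negative calls among 17 (29.4%, a share close to the 26.8% of all genes). Of the 17 genes, 10 had an interaction above 0 and 7 below (median 1.14). In LFD livers 8 fell and 2 rose, and in HFD livers 2 fell and 1 rose. The direction of the calls did not hold with the shared slide: there were 3 positive and 0 negative calls after quantile normalization, 0 and 0 with the slide block and 1 and 2 with the shared slide, and the median on the shared slide was 0.02. Their summed level was 79.9 to 113 in LFD, 14.8 to 23 in LFD MTX50, 55.1 to 108 in HFD and 18.6 to 321 in HFD MTX50, so that all LFD MTX50 livers were low and HFD MTX50 livers ran from low to the highest of the 18. Hba-a2, an alpha globin gene with a near-identical copy, shows this spread. Hba-a2 lay at 5.46, 5.61, 5.28 and 5.73 in LFD livers, at 3.58, 3.31, 3.13, 2.99 and 4.05 in LFD MTX50, at 5.49, 5.74, 4.87 and 5.77 in HFD and at 3.53, 4.56, 5.26, 6.13 and 7.08 in HFD MTX50. The HFD MTX50 livers lay on both sides of the HFD livers, and the LFD MTX50 livers lay below all LFD livers. The Hba-a2 change was -2.11 ± 0.49 (adjusted p = 0.00761) on the low-fat and -0.16 ± 0.49 (adjusted p = 0.854) on the high-fat diet, and the interaction was 1.95 ± 0.70 (adjusted p = 0.0463). Alas2, the first enzyme of erythroid heme synthesis, had a change of -2.99 on the low-fat and -1.25 on the high-fat diet and an interaction of 1.75 ± 0.63 (adjusted p = 0.0470). Car2, a carbonic anhydrase, had an interaction of 1.25 ± 0.44 (adjusted p = 0.0430). Epb42, protein 4.2 of the red cell membrane, was not well above background on any LFD MTX50 or HFD array, and was above it on 1 of 4 LFD and 4 of 5 HFD MTX50 arrays. It was at least 2.45-fold higher in HFD MTX50 than in HFD livers (adjusted p = 0.0180), and its interaction, whose size the groups below background do not give, passed at an adjusted p of 0.0405. With a random slide block, Hba-a2, Alas2, Car2 and Epb42 did not pass the threshold (adjusted p = 0.137 to 0.207). On quantile-normalized values, Car2 and Epb42 passed the threshold (adjusted p = 0.0361 to 0.0480) and Hba-a2 and Alas2 did not (0.0712 to 0.0881). The call was lost on leaving out 1 of the 18 mice for Hba-a2 in 15 (up to 0.103, without HFD mouse 3), Alas2 in 15 (up to 0.0937, without HFD mouse 3), Car2 in 14 (up to 0.0767, without HFD mouse 4) and Epb42 in 11 (up to 0.0773, without HFD mouse 3). The list held 1 to 3 calls when any of 15 of the 18 mice was left out.

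In the fit without a slide term, respiratory chain subunits fell mainly on the low-fat diet, where the change cannot be told apart from slide. Of 32 genes 20 fell in LFD livers and 2 in HFD livers, and 0 rose in either. The interaction was positive for 11 and negative for 0 (median 0.34), against 8.66% positive among all genes. In the brightest signal group, where the members named here lie, 834 of 4900 genes were positive and 265 negative (median 0.19). After quantile normalization 1 call was left (median 0.14), with the slide block 4, with the shared slide 12, and leaving out 1 mouse gave 6 (without HFD mouse 3 or 4) to 17 calls (without HFD MTX50 mouse 3), with 7 without LFD mouse 2. Sdhc, a membrane anchor of succinate dehydrogenase, had the largest interaction. Sdhc lay at 4.32, 4.36, 4.29 and 4.17 in LFD livers, at 3.73, 3.65, 3.30, 3.58 and 3.98 in LFD MTX50, at 3.79, 3.88, 3.35 and 3.53 in HFD and at 4.05, 4.01, 3.73, 4.15 and 4.14 in HFD MTX50. The LFD MTX50 livers were below the LFD livers, and the HFD groups overlapped. The Sdhc change was -0.64 ± 0.14 (adjusted p = 0.00518) on the low-fat and 0.38 ± 0.14 (adjusted p = 0.0767) on the high-fat diet, and the interaction was 1.02 ± 0.19 (adjusted p = 0.00539). A dimmer probe of Sdhc gave -0.15 ± 0.18 (adjusted p = 0.552). Cox5b, of cytochrome oxidase, had 0.91 ± 0.24 (adjusted p = 0.0130), Cox7a2 0.77, Atp5o of the ATP synthase 0.72, and Sdha 0.61 ± 0.19 (adjusted p = 0.0242). Once slide entered as a block, Sdhc passed the threshold (adjusted p = 0.0348) and Cox5b and Sdha did not (0.0504 to 0.0950). After quantile normalization, Sdhc passed the threshold (adjusted p = 0.0121) and Cox5b and Sdha did not (0.0553 to 0.175). Leave-one-out fits lost the call for Sdha in 2 (up to 0.0578, without HFD mouse 4).

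Matrix and stellate cell genes had 0 positive and 6 negative calls among 22, with 4 rising in LFD and 2 falling in HFD livers. The called share of 27.3% was close to the 26.8% of all genes (8.66% positive and 18.1% negative). The median interaction of the list was -0.61, against -0.11 for all genes and -0.55 for the dimmest signal group. Quantile normalization left 2 calls and the slide block 3, the shared slide gave 7, and leaving out 1 mouse gave 3 (without LFD mouse 2 or 3, LFD MTX50 mouse 3, HFD mouse 3 or 4 or HFD MTX50 mouse 4) to 10 (without HFD mouse 1). Bgn, the proteoglycan biglycan, had the largest interaction of the list. Bgn lay at 0.78, 0.42, 0.35 and 0.85 in LFD livers, at 1.83, 1.59, 1.89, 1.35 and 1.92 in LFD MTX50, at 1.26, 2.08, 2.29 and 2.39 in HFD and at 1.27, 1.69, 1.49, 1.20 and 1.73 in HFD MTX50. It rose in LFD livers without overlap, and 3 of the 4 HFD livers lay above all HFD MTX50 livers. The Bgn change was 1.12 ± 0.21 (adjusted p = 0.00263) on the low-fat and -0.53 ± 0.21 (adjusted p = 0.0951) on the high-fat diet, and the interaction was -1.65 ± 0.29 (adjusted p = 0.00482). Col1a2, a chain of type I collagen, had -1.12 ± 0.40 (adjusted p = 0.0478), and Des, desmin of stellate cells, -0.94 ± 0.23 (adjusted p = 0.0102). Col15a1 (-0.85), Reln (-0.77) and Ngfr (-0.68) were the other negative ones. Cholangiocyte markers had 1 negative call among 9, Krt7 with -1.21 ± 0.28 (adjusted p = 0.00874), with 1 positive and 0 negative calls after quantile normalization, 0 and 1 with the slide block and 1 and 1 with the shared slide, and leaving out 1 mouse gave 1 to 3 calls (3 without HFD mouse 1). Endothelial markers had 2 negative calls among 10, Kdr (-0.94) and Pecam1 (-0.61), a share of 20% that is close to the 18.1% of all genes. The endothelial list had 0 positive and 2 negative calls after quantile normalization, 0 and 0 with the slide block and 0 and 0 with the shared slide, and 1 call without LFD mouse 2 or HFD mouse 3 or 4. When slide was a block, Bgn, Des and Krt7 passed the threshold (adjusted p = 0.0331 to 0.0473) and Col1a2 did not (0.128). With quantile normalization, Bgn passed the threshold (adjusted p = 0.00799) and Col1a2, Des and Krt7 did not (0.0624 to 0.213). Omitting 1 mouse at a time lost the call for Col1a2 in 14 (up to 0.114, without HFD mouse 3). Exocrine pancreas markers, whose tissue can be caught with liver, had 1 positive and 3 negative calls among 12 (Clps 1.4, Cpb1 -0.80, Reg1 -0.76, Cela3b -0.73), with a summed level of 29.6 to 37.4 in LFD, 19.6 to 29.7 in LFD MTX50, 25.0 to 37.8 in HFD and 21.2 to 47.1 in HFD MTX50. The part of these cells in the results was not tested.

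The circadian clock, a feedback loop of activators and repressors that times liver metabolism, had 2 positive and 4 negative calls among 22 genes (27.3%, a share close to the 26.8% of all genes, median -0.24), with 2 positive and 1 negative call after quantile normalization, 0 and 0 with the slide block and 2 and 0 with the shared slide, and 3 calls without HFD mouse 4. Cry1, a repressor of the loop, had a change of -0.91 on the low-fat and 0.76 on the high-fat diet and an interaction of 1.66 ± 0.44 (adjusted p = 0.0144). Clock, an activator, had one of -0.51 on the low-fat and 0.32 on the high-fat diet and an interaction of 0.83 ± 0.20 (adjusted p = 0.00970). The output factor Tef (-1.45 ± 0.50 (adjusted p = 0.0422)), the repressor Nr1d1 (-1.39 ± 0.46 (adjusted p = 0.0357)), the repressor Bhlhe41 (-0.84) and the activator Npas2 (-0.69) were negative. The hour of death of the mice is not given in the sources used here. Under the slide block, Cry1, Clock, Tef and Nr1d1 did not pass the threshold (adjusted p = 0.0504 to 0.134). On quantile-normalized values, Cry1, Clock and Tef passed the threshold (adjusted p = 0.0108 to 0.0299) and Nr1d1 did not (0.108). Of the 18 fits that each left out 1 mouse, the call was lost for Tef in 12 (up to 0.0885, without LFD mouse 4) and Nr1d1 in 10 (up to 0.0743, without LFD mouse 4).

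**Figure D5:**
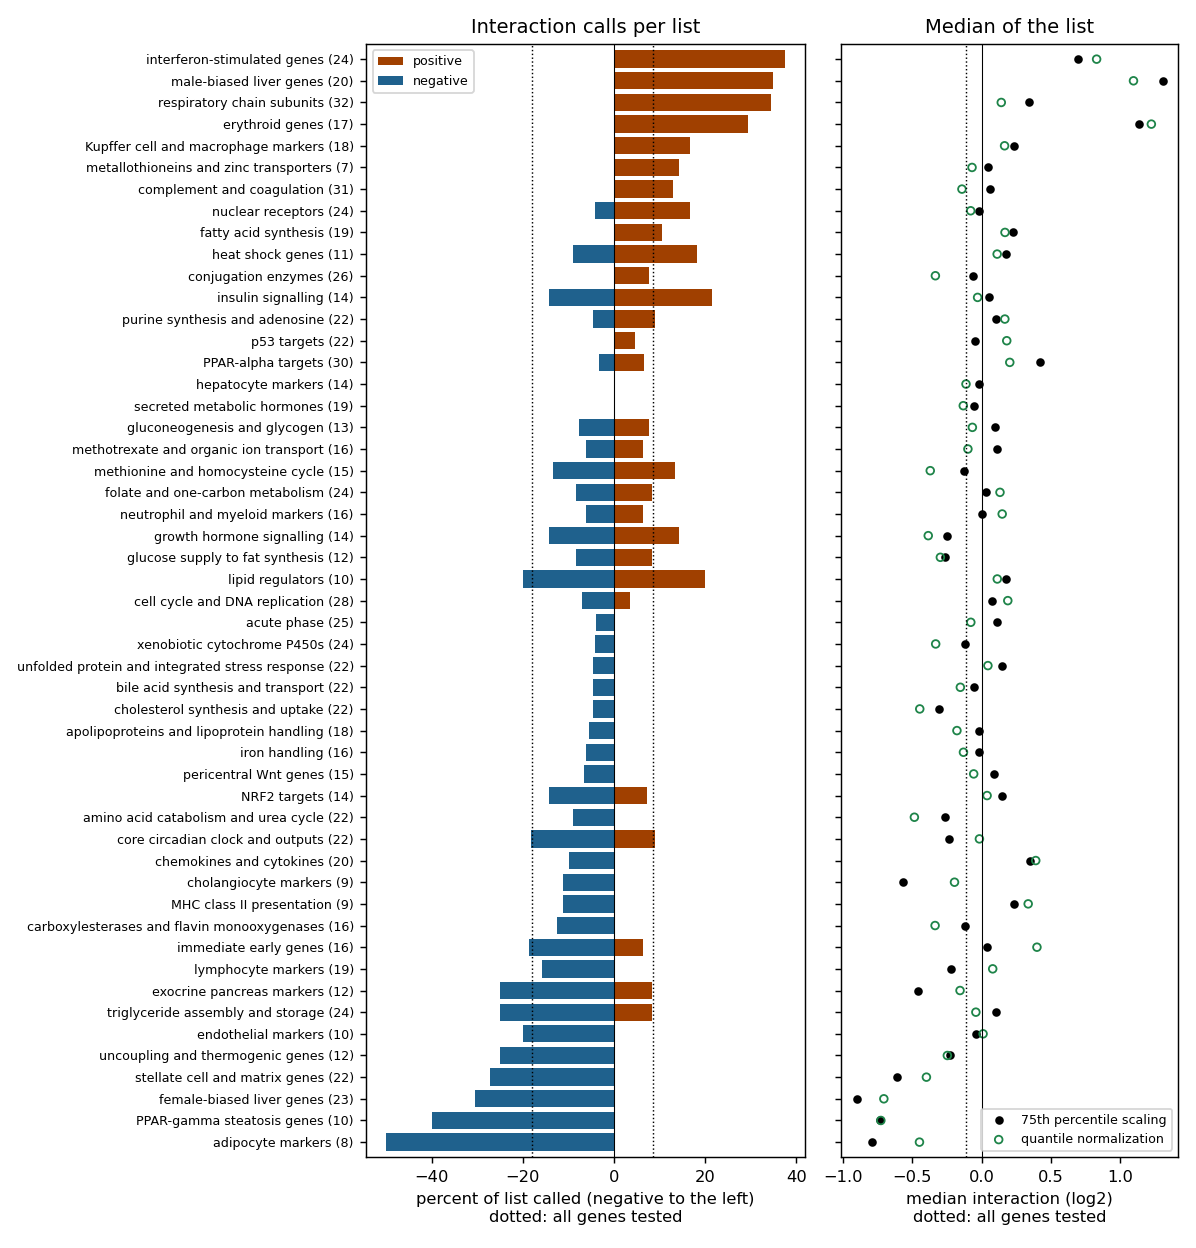
Left, the percent of each gene list (number of genes tested in brackets) called for the interaction, positive to the right and negative to the left, with dotted lines at 8.66% and 18.1% for all genes tested. Right, the median interaction (log2) of each list under 75th percentile scaling and after quantile normalization, with a dotted line at -0.11, the median of all genes under the 75th percentile. Interferon, male-biased, respiratory chain and erythroid genes lie at the top, female-biased, steatosis and adipocyte genes at the bottom.

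Folate and one-carbon metabolism, the pathway that methotrexate inhibits, had 2 positive and 2 negative calls among 24 genes (16.7%, median 0.03), a smaller share than the 26.8% of all genes. Slc19a1, the reduced folate carrier through which the drug enters cells, did not pass the test, with an interaction of -0.31 ± 0.16 (adjusted p = 0.158). Its dimmer probe gave -0.72 ± 0.32 (adjusted p = 0.0953). That probe rose by 1.11 (adjusted p = 0.00403) on the low-fat and 0.39 (adjusted p = 0.243) on the high-fat diet. Mthfd2, a mitochondrial enzyme of the one-carbon cycle, rose on the high-fat diet only. Mthfd2 lay at -3.71, -4.09, -3.27 and -3.12 in LFD livers, at -4.33, -4.0, -3.99, -3.46 and -4.10 in LFD MTX50, at -4.05, -4.20, -4.14 and -4.09 in HFD and at -1.97, -4.10, -3.16, -3.39 and -1.82 in HFD MTX50. HFD MTX50 mice 1 and 5 were the highest of all livers. The Mthfd2 change was -0.43 ± 0.36 (adjusted p = 0.374) on the low-fat and 1.23 ± 0.36 (adjusted p = 0.0402) on the high-fat diet, and the interaction was 1.66 ± 0.51 (adjusted p = 0.0265). Tyms, thymidylate synthase, had 0.67 ± 0.23 (adjusted p = 0.0432) without a call on either diet alone. Mthfd1l, the mitochondrial formate-producing enzyme, rose on the low-fat diet only (0.99 on the low-fat and -0.23 on the high-fat diet, interaction -1.22 ± 0.36 (adjusted p = 0.0227)), and so did Slc25a32, the mitochondrial folate carrier (0.88 on the low-fat and 0.09 on the high-fat diet, interaction -0.79 ± 0.18 (adjusted p = 0.00765)). The folate list had 2 positive and 2 negative calls after quantile normalization, 0 and 1 with the slide block and 0 and 2 with the shared slide, and 2 calls without LFD mouse 3 or HFD mouse 3.

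In the methionine cycle 2 of 15 genes were positive and 2 negative (26.7%, with 0 positive and 3 negative calls after quantile normalization, 0 and 1 with the slide block and 1 and 1 with the shared slide). Ahcy, which splits S-adenosylhomocysteine, rose on the low-fat diet only. Ahcy lay at 0.32, 0.11, 0.04 and 0.37 in LFD livers, at 1.28, 0.80, 1.25, 0.88 and 0.94 in LFD MTX50, at 0.06, 0.05, 0.10 and 0.14 in HFD and at -0.58, 0.31, -0.45, -0.19 and -0.18 in HFD MTX50. HFD MTX50 livers except mouse 2 lay below all other livers. The Ahcy change was 0.82 ± 0.15 (adjusted p = 0.00288) on the low-fat and -0.31 ± 0.15 (adjusted p = 0.183) on the high-fat diet, and the interaction was -1.13 ± 0.22 (adjusted p = 0.00559). Its dimmer probe gave -0.90 ± 0.25 (adjusted p = 0.0163). Mat2a, which makes S-adenosylmethionine, rose on the high-fat diet only (0.14 on the low-fat and 0.77 on the high-fat diet, interaction 0.63 ± 0.20 (adjusted p = 0.0319)). The dimmer probe of Mat2a gave 0.38 ± 0.23 (adjusted p = 0.208). Mtr, methionine synthase (1.02), and Gnmt, glycine N-methyltransferase (-0.66), were called without a call on either diet. Without LFD mouse 1 or 2 or HFD mouse 3 or 4 this list held 2 calls. Purine synthesis and adenosine genes had 2 positive and 1 negative call among 22 (13.6%, a smaller share than the 26.8% of all genes). There were 1 positive and 1 negative call after quantile normalization, 1 and 0 with the slide block and 3 and 1 with the shared slide. Pfas, of de novo purine synthesis, rose on the high-fat diet only. Pfas lay at -2.40, -2.26, -2.39 and -2.13 in LFD livers, at -2.45, -2.66, -2.95, -3.04 and -2.32 in LFD MTX50, at -2.77, -2.90, -2.92 and -2.99 in HFD and at -2.19, -2.13, -2.55, -2.09 and -1.68 in HFD MTX50. Treated HFD livers lay above untreated ones without overlap. The Pfas change was -0.39 ± 0.16 (adjusted p = 0.0775) on the low-fat and 0.77 ± 0.16 (adjusted p = 0.0129) on the high-fat diet, and the interaction was 1.16 ± 0.23 (adjusted p = 0.00586). Hprt of purine salvage had 0.42 and the adenosine receptor Adora3 -0.86. The purine list held 1 call without HFD mouse 3 or 4, 5 without HFD mouse 1 or HFD MTX50 mouse 1 and 6 without HFD MTX50 mouse 2.

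Of 16 transporters of methotrexate and organic ions, 1 was positive and 1 negative, with 1 positive and 1 negative call after quantile normalization, 1 and 0 with the slide block and 1 and 0 with the shared slide. Abcg2, an efflux pump that carries methotrexate, fell on the low-fat diet only. Abcg2 lay at 3.00, 2.65, 2.99 and 2.98 in LFD livers, at 1.39, 1.28, 1.51, 1.67 and 1.27 in LFD MTX50, at 2.92, 2.96, 2.77 and 2.87 in HFD and at 2.59, 2.00, 2.59, 2.90 and 2.42 in HFD MTX50. The LFD MTX50 livers lay below every other liver. The Abcg2 change was -1.48 ± 0.15 (adjusted p = 6.62e-05) on the low-fat and -0.38 ± 0.15 (adjusted p = 0.0913) on the high-fat diet, and the interaction was 1.10 ± 0.21 (adjusted p = 0.00532). Slc22a6, an organic anion transporter, had -0.88. Without HFD MTX50 mouse 1 this list held 6 calls. Mdm2, the p53 target that degrades p53, was the 1 call among 22 p53 targets. Mdm2 lay at 1.64, 1.62, 1.51 and 1.68 in LFD livers, at 1.38, 1.38, 1.07, 1.53 and 1.27 in LFD MTX50, at 1.05, 1.02, 1.11 and 1.03 in HFD and at 1.66, 1.43, 1.41, 1.47 and 1.88 in HFD MTX50. It rose in HFD livers without overlap. The Mdm2 change was -0.29 ± 0.11 (adjusted p = 0.0559) on the low-fat and 0.52 ± 0.11 (adjusted p = 0.0125) on the high-fat diet, and the interaction was 0.80 ± 0.15 (adjusted p = 0.00545). That list had 1 positive and 0 negative calls after quantile normalization, 1 and 0 with the slide block and 1 and 0 with the shared slide, and 3 calls without LFD MTX50 mouse 4 or HFD MTX50 mouse 1. Cell cycle and replication genes had 1 positive (Tyms) and 2 negative calls among 28 (Cdkn3 -0.95, Ccnb2 -0.53), with 1 positive and 1 negative call after quantile normalization, 0 and 1 with the slide block and 0 and 1 with the shared slide, and 1 to 8 calls when 1 mouse was left out (8 without HFD MTX50 mouse 2). With a random slide block, Slc25a32, Ahcy, Pfas, Abcg2 and Mdm2 passed the threshold (adjusted p = 0.0363 to 0.0441) and Mthfd2, Tyms, Mthfd1l and Mat2a did not (0.0503 to 0.160). After quantile normalization, Mthfd2, Slc25a32, Ahcy, Pfas, Abcg2 and Mdm2 passed the threshold (adjusted p = 0.00792 to 0.0363) and Tyms, Mthfd1l and Mat2a did not (0.0736 to 0.142). The call was lost on leaving out 1 of the 18 mice for Mthfd2 in 3 (up to 0.0530, without HFD mouse 3), Tyms in 12 (up to 0.0964, without HFD mouse 3) and Mat2a in 4 (up to 0.0768, without HFD mouse 4).

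Of 25 acute phase genes, 12 rose in LFD and 12 in HFD livers, 0 fell, and the interaction was called for 1 (with 0 positive and 0 negative calls after quantile normalization, 0 and 0 with the slide block and 1 and 0 with the shared slide), Il1rn, the interleukin 1 receptor antagonist (-0.89 ± 0.28 (adjusted p = 0.0271)). The list held 0 to 2 calls when 1 mouse was left out (0 without HFD mouse 3 or 4, 2 without HFD MTX50 mouse 5). Haptoglobin (Hp) had a change of 1.03 ± 0.20 (adjusted p = 0.00339) in LFD and 0.57 ± 0.20 (adjusted p = 0.0724) in HFD livers and an interaction of -0.47 ± 0.28 (adjusted p = 0.222). Of 31 complement and coagulation genes, 11 rose and 3 fell in LFD livers, and 12 rose and 0 fell in HFD livers. The interaction was positive for 4 and negative for 0 (12.9% called, a smaller share than the 26.8% of all genes). There were 3 positive and 1 negative call after quantile normalization, 1 and 0 with the slide block and 1 and 0 with the shared slide. C1ra, a protease of the first complement component, rose on the high-fat diet only. C1ra lay at 5.00, 4.94, 4.74 and 4.93 in LFD livers, at 4.61, 4.37, 4.33, 4.29 and 4.60 in LFD MTX50, at 4.34, 4.01, 3.38 and 3.53 in HFD and at 4.40, 5.05, 4.53, 4.67 and 4.77 in HFD MTX50. HFD livers had the lowest mean and did not overlap with HFD MTX50 livers. The C1ra change was -0.47 ± 0.17 (adjusted p = 0.0511) on the low-fat and 0.87 ± 0.17 (adjusted p = 0.00981) on the high-fat diet, and the interaction was 1.33 ± 0.24 (adjusted p = 0.00506). Its dimmer probe gave 0.45 ± 0.19 (adjusted p = 0.0862). C8b, partner of C8a, had a change of -0.38 on the low-fat and 1.03 on the high-fat diet and an interaction of 1.41 ± 0.39 (adjusted p = 0.0166), and C2 had 0.62. Once slide entered as a block, C1ra passed the threshold (adjusted p = 0.0331) and C8b and Il1rn did not (0.0849 to 0.132). With quantile normalization, C1ra and C8b passed the threshold (adjusted p = 0.00812 to 0.0314) and Il1rn did not (0.121). Leave-one-out fits lost the call for Il1rn in 2 (up to 0.0617, without HFD mouse 3).

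Insulin signalling genes had 3 positive and 2 negative calls among 14, with 2 positive and 2 negative calls after quantile normalization, 0 and 1 with the slide block and 1 and 1 with the shared slide. Foxo3, a transcription factor held back by insulin, rose on the low-fat diet only. Foxo3 lay at -1.86, -1.96, -1.89 and -1.88 in LFD livers, at -0.96, -1.08, -0.75, -1.13 and -0.87 in LFD MTX50, at -1.64, -1.49, -1.45 and -1.33 in HFD and at -1.53, -1.27, -1.58, -1.74 and -1.54 in HFD MTX50. LFD MTX50 livers lay above every other liver. The Foxo3 change was 0.94 ± 0.10 (adjusted p = 0.000140) on the low-fat and -0.06 ± 0.10 (adjusted p = 0.736) on the high-fat diet, and the interaction was -1.0 ± 0.15 (adjusted p = 0.00362). Irs1 (0.90), Grb14 (0.81) and Akt2 (0.59) were positive and Irs2 (-0.71) negative. This list held 2 calls without HFD mouse 3 or 4 and 3 without HFD MTX50 mouse 4. Of 13 gluconeogenesis and glycogen genes 2 were called: Ppp1r3c, which targets phosphatase to glycogen, with 1.85 ± 0.50 (adjusted p = 0.0154), and Pck1, the cytosolic PEP carboxykinase, with -1.12 ± 0.40 (adjusted p = 0.0477). Ppp1r3c fell on the low-fat diet only (-1.91 on the low-fat and -0.06 on the high-fat diet) and Pck1 rose there only (1.31 on the low-fat and 0.20 on the high-fat diet). Of 12 genes that supply glucose carbon to fat synthesis, Pfkl (-0.93) and G6pdx (0.82) were called. Without LFD mouse 1, among others, each of the last pair of lists held 1 call. The first of them had 1 positive and 1 negative call after quantile normalization, 0 and 0 with the slide block and 1 and 0 with the shared slide, and the second 1 positive and 1 negative call after quantile normalization, 0 and 1 with the slide block and 0 and 1 with the shared slide. When slide was a block, Foxo3 passed the threshold (adjusted p = 0.0325) and Ppp1r3c and Pck1 did not (0.0806 to 0.177). On quantile-normalized values, Foxo3, Ppp1r3c and Pck1 passed the threshold (adjusted p = 0.00654 to 0.0294). Omitting 1 mouse at a time lost the call for Pck1 in 14 (up to 0.0862, without LFD mouse 2).

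Heat shock genes had 2 positive and 1 negative call among 11 (27.3%, a share close to the 26.8% of all genes), with 2 positive and 0 negative calls after quantile normalization, 1 and 0 with the slide block and 1 and 0 with the shared slide. Hspb1, a small heat shock protein, fell on the low-fat diet only (-1.67 on the low-fat and -0.14 on the high-fat diet, interaction 1.52 ± 0.39 (adjusted p = 0.0122)), as did Hspe1, the mitochondrial chaperonin (-0.74 on the low-fat and 0.24 on the high-fat diet, interaction 0.99 ± 0.17 (adjusted p = 0.00477)), whose dimmer probes gave 1.03 ± 0.23 (adjusted p = 0.00765) and 1.32 ± 0.23 (adjusted p = 0.00482). Cryab had -0.53. Immediate early genes had 1 positive and 3 negative calls among 16 (25%, again close to all genes), with 2 positive and 1 negative call after quantile normalization, 0 and 0 with the slide block and 1 and 3 with the shared slide, and 3 to 6 when 1 mouse was left out: Ier2 had -1.17 ± 0.30 (adjusted p = 0.0132), Junb -1.11 ± 0.28 (adjusted p = 0.0110), Fosb -0.81 and Nr4a1 0.78. Nuclear receptors had 4 positive and 1 negative call among 24, with 4 positive and 0 negative calls after quantile normalization, 1 and 0 with the slide block and 2 and 0 with the shared slide, and 2 to 7 when 1 mouse was left out (2 without LFD mouse 1 or 2 or HFD mouse 3 or 4). Nr2f2 (COUP-TFII), a receptor of vessels and hepatocytes, had a change of -1.04 on the low-fat and 0.55 on the high-fat diet and an interaction of 1.59 ± 0.38 (adjusted p = 0.00960). Rxrg (1.09), Esrra (0.82) and Thrb (0.59) were the other positive ones and Pparg the negative one. Under the slide block, Hspe1 passed the threshold (adjusted p = 0.0325) and Hspb1, Ier2, Junb and Nr2f2 did not (0.0563 to 0.0719). After quantile normalization, Hspb1, Hspe1, Junb and Nr2f2 passed the threshold (adjusted p = 0.00799 to 0.0442) and Ier2 did not (0.0580).

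The remaining lists had few calls. Secreted metabolic hormones had 0 calls among 19 genes, with Ahsg (fetuin A) at -0.06 and Rbp4 at -0.14, and hepatocyte markers 0 among 14, with Alb (albumin) at -0.01. Xenobiotic cytochromes P450 had 1 among 24 (Cyp2d26 -0.62), conjugation enzymes 2 among 26 (Gstp1 and Gstp2), the unfolded protein and integrated stress response 1 among 22 (Chac1 -1.12), apolipoproteins 1 among 18 (Sort1 -0.79), iron handling 1 among 16 (Slc11a2 -0.61), pericentral Wnt genes 1 among 15 (Znrf3 -0.71), metallothioneins and zinc transporters 1 among 7 (Slc30a1 0.61) and MHC class II 1 among 9 (H2-DMa -0.94). Amino acid catabolism had 2 among 22 (Uroc1 -0.51, Nags -0.51), chemokines and cytokines 2 among 20 (Tnf -0.75, Tgfb1 -0.67), and carboxylesterases and flavin monooxygenases 2 among 16 (Fmo2 among them). NRF2 targets had 3 among 14 (Gsr 1.60, Nqo1 -0.90, Cbr3 -0.79), and uncoupling and thermogenic genes 3 among 12, all negative (Cidea, Slc25a27 -0.79 and Dio2 -0.62). Each of these shares lies below the 26.8% of all genes. Leaving out 1 mouse moved many of these counts: 0 to 2 calls for secreted hormones (2 without HFD MTX50 mouse 2), 0 to 1 for hepatocyte markers, 0 to 4 for xenobiotic P450s (4 without HFD MTX50 mouse 1), 2 to 4 for conjugation enzymes and 1 to 4 for apolipoproteins (4 without HFD MTX50 mouse 2 in both), and 1 to 2 for the stress response and for iron handling. The range was 0 to 3 for pericentral Wnt genes (3 without HFD mouse 1 or HFD MTX50 mouse 1, and 0 without any of 13 mice), 0 to 2 for metallothioneins and for MHC class II, 1 to 5 for amino acid catabolism (5 without LFD MTX50 mouse 4), 0 to 3 for chemokines (0 without LFD mouse 2 or HFD mouse 3 or 4) and 1 to 3 for carboxylesterases and flavin monooxygenases (1 without HFD mouse 3 or 4). After quantile normalization there were 4 calls, all negative, in amino acid catabolism, 3 negative in apolipoproteins, 2 positive and 2 negative in conjugation enzymes, and 0 in pericentral Wnt genes, metallothioneins and chemokines.

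Among the genes in opposite directions, those that fell on the low-fat and rose on the high-fat diet included Hhex, a homeobox factor of hepatocyte identity. Hhex lay at 2.37, 1.67, 2.35 and 2.32 in LFD livers, at 1.63, 1.69, 1.11, 1.4 and 1.73 in LFD MTX50, at 0.79, 1.19, 0.86 and 1.09 in HFD and at 2.25, 1.86, 2.11, 2.98 and 2.70 in HFD MTX50. HFD livers had the lowest mean and HFD MTX50 livers lay above them without overlap, while LFD mouse 2 lay among the LFD MTX50 livers. The Hhex change was -0.67 ± 0.21 (adjusted p = 0.0281) on the low-fat and 1.4 ± 0.21 (adjusted p = 0.00575) on the high-fat diet, and the interaction was 2.07 ± 0.30 (adjusted p = 0.00362). Tcf7l1, a repressor of Wnt target genes, showed no overlap on either diet. Tcf7l1 lay at -2.07, -1.99, -1.96 and -2.01 in LFD livers, at -2.82, -2.75, -3.26, -2.90 and -3.00 in LFD MTX50, at -3.1, -3.26, -3.49 and -3.67 in HFD and at -2.67, -2.23, -2.71, -2.94 and -2.72 in HFD MTX50. Its 4 LFD livers were the highest of all. The Tcf7l1 change was -0.94 ± 0.14 (adjusted p = 0.000991) on the low-fat and 0.72 ± 0.14 (adjusted p = 0.00965) on the high-fat diet, and the interaction was 1.66 ± 0.20 (adjusted p = 0.00362). Adamts7, a metalloproteinase, had a change of -1.41 on the low-fat and 1.03 on the high-fat diet and an interaction of 2.44 ± 0.44 (adjusted p = 0.00498). Ro60, an RNA-binding autoantigen, had one of -1.06 on the low-fat and 0.94 on the high-fat diet and an interaction of 2.00 ± 0.41 (adjusted p = 0.00624), and Smg8, of nonsense-mediated decay, one of -0.69 on the low-fat and 0.83 on the high-fat diet and an interaction of 1.53 ± 0.27 (adjusted p = 0.00482). The transcript 1110038B12Rik had an interaction of 1.90. With a random slide block, the interactions of Hhex, Tcf7l1, Adamts7, Ro60, Smg8 and Lgals3 passed the threshold (adjusted p = 0.0325 to 0.0467). With quantile normalization, Hhex, Tcf7l1, Adamts7, Ro60, Smg8 and Lgals3 passed the threshold (adjusted p = 0.00654 to 0.0174).

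In the reverse orientation, rising on the low-fat and falling on the high-fat diet, Gprc5b, a retinoid-inducible receptor, had a change of 0.99 on the low-fat and -1.15 on the high-fat diet and an interaction of -2.14 ± 0.40 (adjusted p = 0.00531), and its dimmer probe gave -3.25 ± 0.70 (adjusted p = 0.00706). Gprc5b lay at -5.77, -6.15, -5.80 and -5.94 in LFD livers, at -5.30, -4.64, -4.48, -5.04 and -5.17 in LFD MTX50, at -5.47, -4.38, -3.59 and -4.34 in HFD and at -5.26, -5.40, -5.69, -5.48 and -6.13 in HFD MTX50. LFD MTX50 livers lay above LFD livers without overlap, and HFD mouse 1 was within the HFD MTX50 range. Mpp4, a scaffold protein, had an interaction of -1.86 ± 0.40 (adjusted p = 0.00698), but its other probe gave 0.14 ± 0.56 (adjusted p = 0.874). Kcnmb4, a potassium channel subunit, had -2.20 ± 0.48 (adjusted p = 0.00712) and Zfp389, a zinc finger gene, -1.77 ± 0.37 (adjusted p = 0.00636). Gm20865 (-2.81), Dusp27 (-2.43), 5530401A14Rik (-2.25) and Ccr1l1 (-1.96) completed the 8 largest by the smaller of both changes. Once slide entered as a block, Gprc5b, Mpp4 and Zfp389 passed the threshold (adjusted p = 0.0341 to 0.0416) and Kcnmb4 did not (0.0565). On quantile-normalized values, Gprc5b, Mpp4, Kcnmb4 and Zfp389 passed the threshold (adjusted p = 0.0110 to 0.0365).

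The largest responses on the high-fat diet only, after Cfd and Cidea, included Avpr1a, the vasopressin receptor of hepatocytes. Avpr1a lay at -0.56, -1.11, -1.25 and -0.31 in LFD livers, at -0.80, 0.04, -0.23, -0.38 and -0.46 in LFD MTX50, at -1.81, -3.22, -3.33 and -3.20 in HFD and at -0.75, -1.14, -0.35, -1.94 and -1.19 in HFD MTX50. HFD mice 2 to 4 lay below every other liver, and HFD mouse 1 lay among the treated ones. The Avpr1a change was 0.44 ± 0.33 (adjusted p = 0.319) on the low-fat and 1.82 ± 0.33 (adjusted p = 0.00788) on the high-fat diet, and the interaction was 1.38 ± 0.47 (adjusted p = 0.0382). Fam222a rose as well. Fam222a lay at -1.63, -2.66, -2.10 and -2.31 in LFD livers, at -2.09, -2.28, -2.09, -3.05 and -1.87 in LFD MTX50, at -3.47, -4.26, -4.37 and -4.53 in HFD and at -1.71, -2.56, -2.76, -3.21 and -1.53 in HFD MTX50. The HFD livers were the lowest of all without overlap. The Fam222a change was -0.10 ± 0.34 (adjusted p = 0.836) on the low-fat and 1.80 ± 0.34 (adjusted p = 0.00865) on the high-fat diet, and the interaction was 1.90 ± 0.48 (adjusted p = 0.0115). The glutamate receptor gene Grin3b fell (-1.53 in HFD livers, interaction -1.4). Vat1l and the olfactory receptor gene Olfr610 passed the test as lower in HFD MTX50 than in HFD livers, but were not well above background on any HFD MTX50 array, so that no size is given. When slide was a block, Avpr1a and Fam222a did not pass the threshold (adjusted p = 0.0593 to 0.112). After quantile normalization, Avpr1a and Fam222a passed the threshold (adjusted p = 0.0125 to 0.0421). Omitting 1 mouse at a time lost the call for Avpr1a in 11 (up to 0.0887, without HFD mouse 3).

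Among the 12 most positive and 12 most negative interactions, the probes of Hk1 and Trio disagreed. Hk1, hexokinase 1, had 2.92 ± 0.74 (adjusted p = 0.0121) on its brightest probe and -0.84 ± 0.29 (adjusted p = 0.0376) on another, with opposite signs. Trio, a guanine nucleotide exchange factor, had -2.98 ± 0.54 (adjusted p = 0.00506) on its brightest probe and 0.38 ± 0.14 (adjusted p = 0.0575) and 0.46 ± 0.13 (adjusted p = 0.0154) on the others. Rgs11, a regulator of G protein signalling, lay between 1.14 and 2.26 in LFD MTX50 livers and between 3.13 and 3.94 in LFD livers. The Rgs11 change was -2.01 ± 0.41 (adjusted p = 0.00415) on the low-fat and 0.98 ± 0.41 (adjusted p = 0.116) on the high-fat diet, and the interaction was 2.99 ± 0.58 (adjusted p = 0.00560). The others, beside those described above, were the receptor genes P2ry4 (4.36) and Avpr2 (4.22), Grhl3 (3.02), Pnma3 (2.74), Cryaa (2.57) and Fnd3c2 (2.55) on the positive side, and Lrfn2 (-2.96), Slc22a29 (-2.83), the olfactory receptor gene Olfr564 (-2.91), Trpm3, Olfr169 and Olfr1090 on the negative side. No size is given for the last 3, which were not well above background on any LFD array. Under the slide block, Trio and Rgs11 passed the threshold (adjusted p = 0.0332 to 0.0358) and Hk1 did not (0.0809). With quantile normalization, Hk1, Trio and Rgs11 passed the threshold (adjusted p = 0.00870 to 0.0222). Of the other genes listed here, Fnd3c2 and Trpm3 passed with the slide block (adjusted p = 0.039 to 0.045). P2ry4, Avpr2, Grhl3, Pnma3, Cryaa, Lrfn2, Slc22a29, Olfr564, Olfr169 and Olfr1090 did not (0.0543 to 0.155). Grhl3, Olfr564 and Olfr169 also lost the call after quantile normalization (0.0546 to 0.149), and the rest kept it.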

How the data were processed

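Liver RNA of 18 mice was hybridised to one-colour Agilent arrays of 43020 non-control spots (39429 probes), 1 array per mouse. The authors deposited the scanner files of Agilent Feature Extraction 10.7.3.1 (version per the labels' processing notes), whose processed intensity is already background-subtracted by that software. The value table of the series holds background-subtracted intensities of the same scans. Scaled here by the 75th percentile of each array, it served as an alternative. Here log2 of the deposited intensity minus the 75th percentile of the array was computed, outlier spots left out, spots of a probe averaged, and 35739 probes well above background on at least 4 arrays kept (347 with a missing value). Gene names came from RefSeq, matched by the accession that the scanner files give each probe, for 28025 probes (71.1%). The 4 groups were fitted as means in limma 3.58.1 (R 4.3.3, residual df 14) with p-values adjusted by Benjamini-Hochberg across every kept probe, and the interaction, low-fat and high-fat contrasts were taken. Figures used matplotlib 3.10.9.

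The genes named are the 12 most positive and 12 most negative interactions among called genes above background on every array of a group, up to 8 opposite genes in each orientation by the smaller change, up to 8 high-fat-only genes by the high-fat change (both with the same condition on background), up to 5 called members of a list or 2 bright ones, and the genes the article names for these arrays. The gene groups and lists were chosen with earlier results of these data known. Alternatives covered scaling, background, filters, weights, slide, probes and each mouse left out. A few genes are not reported here.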

Additional observations from a re-analysis of the deposited data

Results flagged for a closer look

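The genes of the report whose response to methotrexate differed between the diets by the limma interaction (adjusted p below 0.05) numbered 93, and their interactions (log2, high-fat minus low-fat change) are given here by group. In sex-biased genes and growth hormone signalling, the positive interactions were Elovl3 4.67, Mup21 2.79, Cyp4a12a 2.40, Igfbp2 2.38, Gstp1 2.29, Cyp4a12b 2.26, Susd4 1.68, C8a 1.31 and Stat5a 1.09, and the negative ones were Igfals -0.76, Trim24 -0.96, Sult1e1 -1.29, A1bg -1.47, Socs2 -1.74, Cyp2b9 -2.46, Fmo2 -2.68 and Cux2 -4.72. Outside those lists but described beside them were Hsd3b4 4.49, Nat8f5 3.22 and Slc22a26 -2.54. In lipid and glucose metabolism, the positive interactions were Ppp1r3c 1.85, Acly 1.34, Abhd5 1.03 and Mlxipl 0.77, and the negative ones were Pparg -0.53, Foxo3 -1.0, Plin1 -1.07, Pck1 -1.12, Slc25a10 -1.30, Slco1a4 -1.38, Cidec -1.44, Lpin2 -1.45, Lep -2.33, Lpin1 -2.48, Cidea -2.88 and Cfd -3.74. In interferon, immune, complement and erythroid genes, the positive interactions were Ifit1 2.19, Hba-a2 1.95, Alas2 1.75, Rsad2 1.67, Parp14 1.58, Cd9 1.56, Gbp2 1.53, Oasl1 1.5, Cd68 1.46, Trim21 1.45, Lgals3 1.41, C8b 1.41, Gbp3 1.38, C1ra 1.33, Car2 1.25 and Csf1r 0.97, and the negative ones were Il1rn -0.89 and Cd8a -1.65. In folate, methionine, purine, transport and p53 genes, the positive interactions were Mthfd2 1.66, Pfas 1.16, Abcg2 1.10, Mdm2 0.80, Tyms 0.67 and Mat2a 0.63, and the negative ones were Slc25a32 -0.79, Ahcy -1.13 and Mthfd1l -1.22. In the remaining genes, the positive interactions were Rgs11 2.99, Hk1 2.92, Adamts7 2.44, Hhex 2.07, Ro60 2.00, Fam222a 1.90, Cry1 1.66, Tcf7l1 1.66, Nr2f2 1.59, Smg8 1.53, Hspb1 1.52, Avpr1a 1.38, Sdhc 1.02, Hspe1 0.99, Cox5b 0.91, Clock 0.83 and Sdha 0.61, and the negative ones were Des -0.94, Junb -1.11, Col1a2 -1.12, Ier2 -1.17, Krt7 -1.21, Nr1d1 -1.39, Tef -1.45, Bgn -1.65, Zfp389 -1.77, Mpp4 -1.86, Gprc5b -2.14, Kcnmb4 -2.20 and Trio -2.98.

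Single livers far from the others of their group (Dixon's test) were found in 20 of 428 groups of 4 or 5 mice, and chance alone marks about 5% of groups. They were, by log2 level, Mup21 in LFD MTX50 mouse 5 (2.13), Mup21 in HFD MTX50 mouse 1 (3.56), Fmo2 in HFD MTX50 mouse 2 (-0.25), Trim24 in HFD mouse 2 (-0.12), Cidea in HFD MTX50 mouse 4 (-0.0950), Acly in LFD mouse 3 (5.66), Acly in LFD MTX50 mouse 3 (3.06), Enho in LFD mouse 1 (3.77), Clock in LFD MTX50 mouse 1 (-2.01), Clock in HFD mouse 1 (-1.38), Hhex in LFD mouse 2 (1.67), Adamts7 in HFD MTX50 mouse 5 (-3.71), Lgals3 in LFD mouse 4 (2.79), Avpr1a in HFD mouse 1 (-1.81), Slc19a1 in LFD mouse 4 (-0.46), Pck1 in LFD mouse 2 (4.34), Abcg2 in LFD mouse 2 (2.65), Hspb1 in HFD mouse 1 (3.38), Srebf1 in HFD mouse 1 (-0.84) and Ro60 in HFD mouse 1 (0.22). HFD mouse 1 and LFD mouse 2 occur most often among them. The cause of these levels was not tested.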

How the results depend on the processing

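The 4 counts (genes called, low-fat only, high-fat only, opposite) were 5243, 2818, 818 and 313. They were 3283, 1428, 811 and 178 after quantile normalization, 1249, 127, 450 and 12 under the slide block, 3316, 2171, 451 and 165 with the shared slide, 8684, 3573, 2070 and 2236 with array weights, and 1556, 1011, 129 and 160 with a 2-fold interaction required. Leaving out 1 mouse gave 3007 to 6199, 1522 to 3104, 110 to 1303 and 15 to 755. The normexp background gave 0 in all 4 with limma (1229 at an unadjusted p below 0.05), since spots with a local background far brighter than themselves upset its fit. With those backgrounds replaced, an alternative chosen after seeing the data, the counts were 4076, 2036, 711 and 174. Same-numbered mice of different groups did not deviate together (residual correlation -0.314 to 0.255 over 25 pairs, median -0.021), so the numbers pair nothing, and a replicate block gave 5065, 3040, 415 and 161. The other alternatives (median scaling, the value table, outlier spots kept, no filter, all 18 arrays, trend and robust variances, group weights, mean of probes, any probe) kept the first count between 4884 and 6259.

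Of the genes described with their errors, 52 lost their call with the slide block, 30 with the shared slide, 26 after quantile normalization, 25 without HFD mouse 3 and 26 without HFD mouse 4. Signs turned in genes that had no call: Mogat1 was at -0.78 with normexp, -0.37 with replaced backgrounds and -0.023 on the shared slide, Fasn at -0.34 with array weights, -0.060 with the slide block and -0.91 on the shared slide, Acacb at -0.51 and -0.091 with array weights and on the shared slide, and Gpam, Fitm1 and Elovl5 at -0.26, -0.16 and -0.15 on the shared slide. Elovl6 was at -0.10 (quantile), -0.015 (replaced backgrounds), -0.052 (value table), -0.29 (array weights), -0.16 (slide block) and -0.78 (shared slide), Enho at -0.068 (quantile) and Srebf1 at 0.20 (normexp). Mlxipl, which was called, was at -0.90 on its other probe. With 1 mouse left out, Mogat1 ranged from -0.27 to 0.37, Fasn from -0.41 to 0.63, Gpam from -0.032 to 0.47, Acacb from -0.077 to 0.69, Elovl6 from -0.48 to 0.43 and Srebf1 from -0.71 to 0.18. The causes were not tested. Signal over background limits the dim genes, where, in the dimmest of 4 signal groups, 1328 calls were negative and 63 positive with the 75th percentile and 306 and 223 after quantile normalization.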
